A study of Mus musculus with 7899 samples.

Results

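Cish and Socs1 to Socs7 encode the 8 members of the CIS/SOCS family, the feedback inhibitors of cytokine receptors, and they are described here in pancreatic β cells of pregnant and nursing mice. The members were taken by gene symbol from every read count table and are 8 of the 21767 genes of the full tables. The family was chosen with earlier results of these data known. The tables of 5 experiments and that of the p300 knockout held all 8, whereas the table of the Stat3 knockout held 12791 usable genes and only Cish, Socs1, Socs2, Socs5 and Socs7.

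The study measured RNA with Smart-seq3xpress, a plate method for single cells, in 7897 cells labelled as β cells of female C57BL/6J mice. Reads of the cells of a group and replicate were summed into 1 library, which gave 100 libraries in 48 groups, with 3 libraries in G14.5, G18.5, P14L and HFD_G14.5 and 2 in every other group. The pregnancy time course, on standard diet and with no genotype in the labels, had 35 libraries of 3481 cells. Its 16 groups were G0, 9 stages of gestation named by their day from G3.5 to G18.5, and the L and NL groups of days 2, 7 and 14 after delivery (P2L, P2NL and so on). The labels leave L and NL unexplained, and they are taken here for lactating and non-lactating mice.

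The other experiments were analysed in tables of their own. Mice labelled Acss2 knockout or wild type, and mice labelled Stat3 knockout or wild type, were sampled at G0, G14.5 and G18.5, and mice labelled p300 knockout or wild type at G0 and G14.5, all on standard diet. The high-fat diet table held mice with no genotype label at G0, at G14.5 and on day 7 after delivery (NL), Acss2 knockout and wild-type mice at G0 and G14.5, all on high-fat diet, and Acss2 wild-type mice on standard diet at G14.5. The labels name no promoter or Cre line for any knockout. Islets of female mice on standard diet were also cultured for 4 days in medium with 20% human serum, either maternal (MS) or normal (NS), with 5 µM A485, an inhibitor of the acetyltransferases p300 and CBP, with 20 µM nifuroxazide, used as an inhibitor of STAT3 signalling, or with the vehicle DMSO. Each inhibitor had its own vehicle set. The cells came from picked islets and were sorted by flow cytometry, with no sort markers named.

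CIS and SOCS proteins close a feedback loop. A cytokine receptor activates JAK kinases, these phosphorylate STAT transcription factors, and the STATs transcribe Cish and Socs genes, whose products bind phosphorylated receptors or kinases through an SH2 domain and recruit an elongin and cullin ubiquitin ligase through the SOCS box. In β cells of pregnant rodents the ligands are prolactin and placental lactogens, which act through the prolactin receptor, Jak2 and Stat5, and Cish and Socs2 are known targets of that route. Socs3 is better known as a target of STAT3 downstream of interleukin 6 and leptin, Socs1 as a target of interferon signalling, and Socs4 to Socs7 are linked mainly to growth factor and insulin receptors.

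The libraries held 21 to 160 cells and 13273435 to 181405413 reads, of which Ins1 and Ins2 took 33% to 69.8%. Of 10 β-cell markers, at least 9 reached 10 CPM in the G0 libraries of the time course, while Mafa, a β-cell factor, lay at 0.61 to 4.33 CPM in that table. Ptprc, the defining gene of immune cells, was at 0 in 30 of 35 libraries of the time course, and the stromal gene Col3a1 in 28. Over that table the summed CPM ran from 55.9 to 170.3 for 8 immune markers, of which 1 or 2 reached 10 CPM, from 103.6 to 292 for 5 ductal markers, of which 1 or 2 did, and from 379 to 2259 for 5 hepatocyte markers, of which 1 to 5 did. The hepatocyte sum was mostly Ttr, while Alb had a median of 1.37 CPM over the 35 libraries. Gcg, the α-cell hormone gene, ranged from 2.36 to 6611 CPM over all tables. In these sums, fewer cells with RNA of a gene and less RNA per cell cannot be told apart, so the members were also counted cell by cell.

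The promoter of Cish, the member with the widest range, is shown first because letters of a STAT site lie at its RefSeq start site. The sequences are those of RefSeq for GRCm38.p6, which held windows of 300 bases for Cish, Socs1, Socs3 and Socs4. They are printed in lower case, 5′ to 3′ on the strand of the gene, with matches to TTCNNNGAA, a general STAT motif that reads the same on both strands, in capitals. Each stretch holds the 30 bases that end with the last match. The Cish stretch is chr9:107296649-107296678 on the plus strand and spans the RefSeq start site at 107296659. In the GENCODE annotation it lies in the first exon, in the 5′ UTR, of the transcript Cish-201, and before the start of the other 4 Cish transcripts. The Socs3 stretch is chr11:117969512-117969541 on the minus strand, upstream of the start site of its RefSeq window at 117969366. It lies within the Socs3 gene of RefSeq, which spans 117966079 to 117970336, and within that of GENCODE. In GENCODE it is in an intron of the transcript Socs3-202, which starts at 117970047, and before the starts of Socs3-201 and Socs3-203.
Cish: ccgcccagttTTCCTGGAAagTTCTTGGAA
Socs3: cgcctctgccagaaaccagccTTCTTAGAA
Cish held 2 matches, TTCCTGGAA at the RefSeq start site and TTCTTGGAA 11 bases further in, and Socs3 held 1, TTCTTAGAA. The windows of Socs1 and Socs4 held 0, and Socs2, Socs5, Socs6 and Socs7 had no window to search. At least 1 match was present in 8.3% of 32851 RefSeq promoter windows of this length and at least 2 in 0.457%. A match is a description of the letters and not a measured binding site.

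By the median over the time course Cish and Socs2 were the most abundant members per length of gene. The median over its 35 libraries was 25.3 CPM per kilobase for Cish (chromosome 9, 107296026–107302784, plus strand, GRCm38) and 18.1 for Socs2 (chromosome 10, 95385362–95417180, minus strand). Socs3 (chromosome 11, 117966079–117970047, minus strand) followed at 7.57 and Socs7 (chromosome 11, 97362551–97398542, plus strand) at 4.09. Socs5 (chromosome 17, 87107679–87137839, plus strand), Socs6 (chromosome 18) and Socs4 (chromosome 14, 47276931–47296102, plus strand) were lower, at 2.55, 2.1 and 1.34. Socs1 (chromosome 16, 10782240–10785536, minus strand) was the lowest at 0.468 CPM per kilobase. At G0 the order was another: Cish stood at 1.74 and 1.94 CPM per kilobase, below Socs2 (8.66 and 8.1), Socs3 (4.65 and 7.33) and Socs7 (3.78 and 7.18). Socs5 and Socs6 were also above Cish per kilobase in both G0 libraries. Cish overlaps the annotated genes Gm17040 and Gm17041 and Socs6 overlaps 3 unnamed models, and the sources used here do not say whether reads were counted by strand.

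Cish rose steeply in the first week of gestation and stayed high to term. It lay at 8.16 and 9.12 CPM at G0, at 13.6 and 39.2 at G3.5, and at 26.3 and 32.6 at G5.5. At G6.5 it reached 118.1 and 108.6 CPM. The libraries held 178.7 and 202.7 CPM at G8.5, 147.6 and 118.9 at G10.5, 211.7 and 214.5 at G12.5, 131.8, 232.7 and 129.2 at G14.5, 175.7 and 191.1 at G16.5 and 216.5, 204.1 and 202.2 at G18.5. All 16 libraries of G6.5 to G18.5 were above all 6 libraries of G0, G3.5 and G5.5, and the stages from G6.5 on overlapped one another in part.

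Against G0, Cish passed edgeR's quasi-likelihood test at every stage from G6.5 on. The log2 fold change was 3.72 at G6.5 (SE 0.71, adjusted p 0.00399), 4.47 at G8.5 (SE 0.73, adjusted p 0.000277) and 4.63 at G12.5 (SE 0.74, adjusted p 0.000141). It was 4.26 at G14.5 (SE 0.71, adjusted p 0.000135), between means of 165 ± 59 CPM (SD, n = 3) and 8.64 ± 0.682 CPM (n = 2), and 4.59 at G18.5 (SE 0.72, adjusted p 7.03e-05). At G3.5 (1.63, adjusted p 0.314) and G5.5 (1.78, adjusted p 0.197) it missed the threshold, as did the step from G5.5 to G6.5 itself (1.94, SE 0.65, adjusted p 0.125). The 9 stage comparisons share the same 2 G0 libraries, and without G0 replicate 1 or G0 replicate 2 the adjusted p at G6.5 was 0.0565 or 0.0576, with log2 fold changes of 3.64 and 3.80.

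Socs2, whose product also dampens growth hormone receptor signalling, rose over a narrower range and more gradually. It lay at 36.7 and 34.4 CPM at G0, at 52.8 and 56.3 at G3.5, at 51.3 and 64.9 at G5.5 and at 68.7 and 65.7 at G6.5. It then reached 90.9 and 120.6 CPM at G8.5, 82.3 and 68.95 at G10.5, 113.8 and 115.8 at G12.5, and its highest mean at G14.5, with 136.9, 125.2 and 146.2. At G16.5 it held 102.6 and 115.1 CPM and at G18.5 121.2, 119.1 and 119.7. Every gestation library was above both G0 libraries. The log2 fold change against G0 was 0.92 at G6.5 (SE 0.23, adjusted p 0.0321), 1.57 at G8.5 (adjusted p 8.11e-05), 1.09 at G10.5 (adjusted p 0.00547) and 1.94 at G14.5 (SE 0.22, adjusted p 4.63e-07). Leaving out any 1 of the 4 libraries ended the call at G6.5 (0.87 to 0.97, adjusted p 0.0841 to 0.209). Without G0 replicate 2 or G10.5 replicate 1 the adjusted p at G10.5 was 0.067 or 0.0852.

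**Figure D1:**
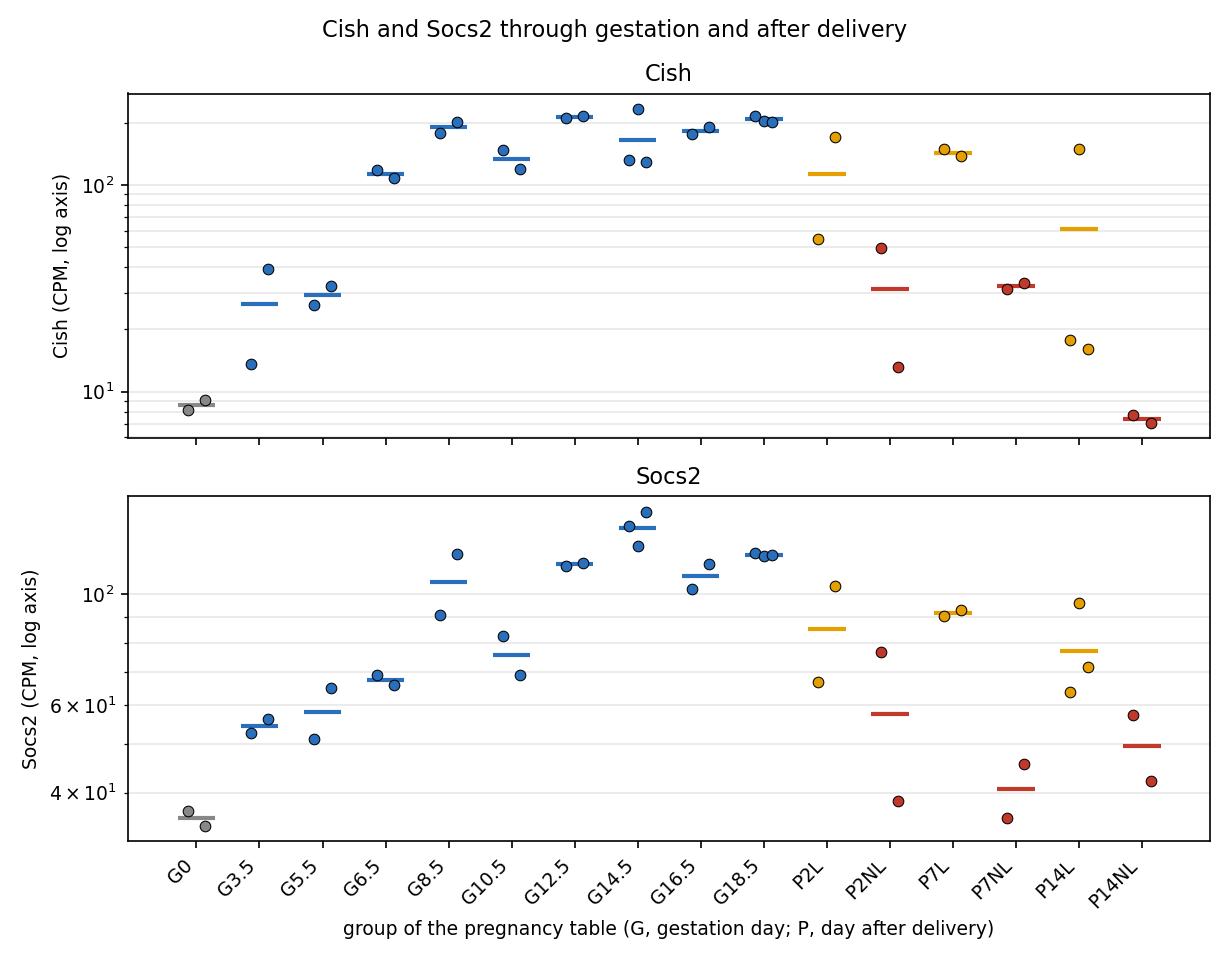
Cish and Socs2 in each library of the pregnancy time course, in CPM on a log axis, by group; points are libraries, bars are group means, and colours mark G0 (grey), gestation (blue), L (yellow) and NL (red). Cish steps up between G5.5 and G6.5, spreads over 17.8, 150.1 and 16 CPM in the 3 P14L libraries, and lies lowest in P14NL and G0, while Socs2 moves over a range of 3.83-fold between group means.

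Of the 8 members, Cish and Socs2 were the 2 that passed at each of the 7 stages from G6.5 on, all upward. Among all 15373 genes tested the share called was 1.65% at G6.5, 5.79% at G8.5, 2.76% at G10.5, 5.03% at G12.5, 10.1% at G14.5, 7.25% at G16.5 and 4.77% at G18.5. At G3.5 and G5.5, where 0.579% and 1.57% of all genes were called, 0 members passed edgeR's test, and Cish and Socs2 were the 2 with an unadjusted p under 0.05. DESeq2 called 0 members at G3.5 and 1, Socs2, at G5.5, and limma 0 at both. Between G6.5 and G5.5, 0 members passed against 1.82% of all genes, 1 had an unadjusted p under 0.05, and DESeq2 and limma called 0. The median log2 fold change of the 8 members at G14.5 was 0.15, beside 0.01 for all genes.

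The other 6 members passed edgeR's test against G0 at no stage of gestation. Socs3 lay at 11.9 and 18.7 CPM at G0 and at 10.48, 15.6 and 19.4 at G14.5, so the groups overlapped. Its highest gestation libraries were those of G8.5, at 27 and 33 CPM (log2 fold change 0.98, SE 0.38, adjusted p 0.133), where Alb, a liver gene, was also at 181.6 and 142.2 CPM against 1.4 and 2.71 at G0. Whether the 2 are related was not tested. Socs7, linked to insulin receptor signalling, had values of 18.7 to 35.6 CPM over the gestation libraries from G3.5 on and of 26.5 and 50.4 at G0. Its log2 fold change was -0.74 at G8.5 (adjusted p 0.072) and -0.63 at G14.5 (adjusted p 0.0693). DESeq2 called both (-0.75, adjusted p 0.0371, and -0.65, adjusted p 0.0421), beside 1371 and 2037 of all 15373 genes. Without G0 replicate 1, its low library, edgeR's values became -1.14 (adjusted p 0.0108) and -1.02 (adjusted p 0.00988).

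Socs4, Socs5 and Socs6 spanned narrow ranges. Over the 35 libraries Socs4 ran from 5.81 to 15.8 CPM, Socs5 from 7.6 to 20.3 and Socs6 from 7.89 to 16.7, and the ratio of the highest to the lowest group mean was 1.7 for Socs4 and Socs5 and 1.53 for Socs6. Socs1 stayed at 0.109 to 1.03 CPM in every library of the time course.

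**Figure D2:**
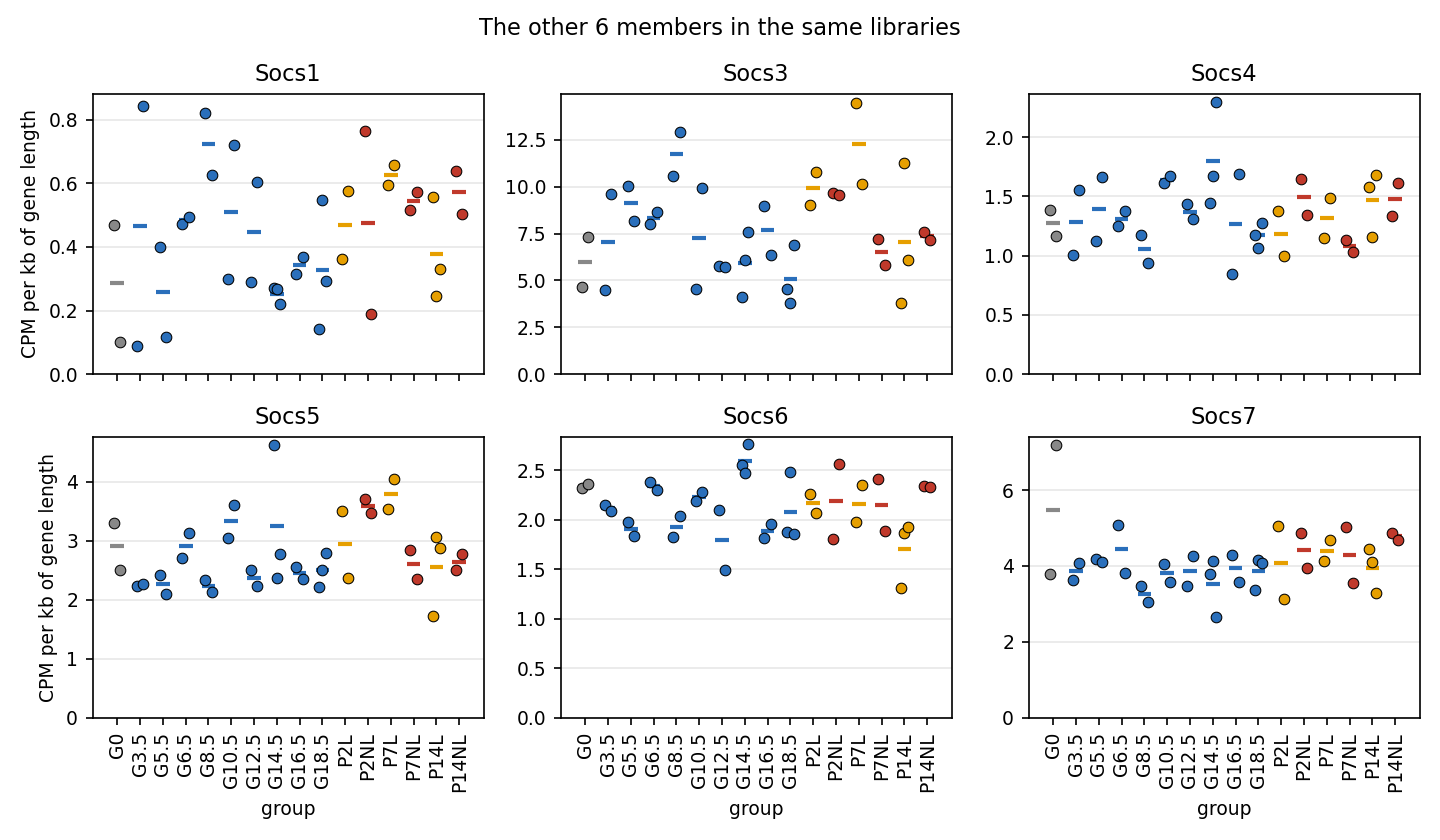
Socs1, Socs3, Socs4, Socs5, Socs6 and Socs7 in each library of the pregnancy time course, in CPM per kilobase of gene length on linear axes from 0; points are libraries and bars are group means. None of the 6 shows the step of Cish at G6.5, and Socs3 is highest in G8.5 and P7L.

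Ordered by group mean, Cish was lowest in P14NL and G0, followed by G3.5, G5.5, P2NL and P7NL, and highest in G12.5. The ratio of the highest to the lowest mean was 28.9. Of the 15 pairs of neighbours in this order, 3 did not overlap between their libraries, namely P14NL and G0, G0 and G3.5, and G6.5 and G10.5. Socs2 ran from G0 to G14.5 over 3.83-fold, and 4 of 15 neighbour pairs did not overlap. Socs3, lowest in G18.5 and highest in P7L, spanned 2.42-fold with 0 of 15, and Socs6 had 2 of 15 over 1.53-fold. The pairs were not counted over all genes, so these counts do not set any member apart.

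After delivery Cish was higher in the L libraries than in the NL libraries on each day, a difference that passed the test on day 14 and that varied between libraries on days 2 and 14. On day 2 Cish lay at 54.7 and 170.04 CPM in P2L and at 49.3 and 13.1 in P2NL, and on day 7 at 149.3 and 137.7 in P7L and 31.4 and 33.6 in P7NL. On day 14 it lay at 17.8, 150.1 and 16 CPM in P14L and at 7.68 and 7.07 in P14NL. The groups did not overlap on any of the 3 days, and on day 14 a single P14L library was at the level of gestation. Cish was called on day 14 (log2 fold change 3.06, SE 0.65, adjusted p 0.0129), and not on day 2 (1.85, SE 0.64, adjusted p 0.698) or day 7 (2.14, SE 0.65, adjusted p 0.169). Without P14L replicate 2 the day 14 value was 1.19 (adjusted p 0.275), and without P14NL replicate 1 or replicate 2 the adjusted p was 0.18 or 0.162.

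Socs2 followed the same split with less spread. It lay at 66.8 and 103.9 CPM in P2L against 76.6 and 38.4 in P2NL, at 90.3 and 92.9 in P7L against 35.7 and 45.8 in P7NL, and at 63.8, 96.2 and 71.4 in P14L against 57.3 and 42.1 in P14NL. The groups overlapped on day 2 and did not on days 7 and 14. Socs2 was called on day 7 (log2 fold change 1.17, SE 0.23, adjusted p 0.00443) and not on day 2 (0.57, adjusted p 0.854) or day 14 (0.63, SE 0.21, adjusted p 0.223). Without P7NL replicate 1 its day 7 value was 1.00 (adjusted p 0.152), and without P2NL replicate 1 its day 2 value was 1.15 (adjusted p 0.0392).

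The prolactin receptor gene Prlr was higher in L on all 3 days, by 0.93 (adjusted p 0.025), 1.23 (adjusted p 0.000251) and 1.02 (adjusted p 0.00117) on the log2 scale. In P14L it was even, at 823.2, 749.6 and 809.1 CPM, while Cish was at 17.8, 150.1 and 16. Tph1, the enzyme of serotonin synthesis that lactogens raise in islets, stood at 22.9, 36.8 and 21.5 CPM in these libraries and Myc, a growth gene linked to STAT5, at 2.77, 15.98 and 4.08. Prlr was thus at a like level in all 3 P14L libraries, and Cish and Myc were high in the same single one.

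Between G18.5 and day 2 without lactation, Cish fell by 2.73 (log2 units, SE 0.64, adjusted p 0.018) and Socs2 fell by 1.06 (SE 0.21, adjusted p 0.00388). Both calls rested on P2NL replicate 2, without which the values were -2.07 (adjusted p 0.504) and -0.65 (adjusted p 0.44). Between G18.5 and P2L neither passed (Cish -0.89, adjusted p 0.943, and Socs2 -0.49, adjusted p 0.89). Between P14NL and G0 the log2 differences were -0.22 for Cish (adjusted p 0.959) and 0.48 for Socs2 (adjusted p 0.475). Socs3 lay at 36.9 and 25.9 CPM in P7L and at 18.4 and 14.8 in P7NL, without overlap, and passed in 0 of the 6 comparisons after delivery.

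The members called after delivery were 1 on day 7 (Socs2), 1 on day 14 (Cish) and 2 from G18.5 to P2NL, against 0.839%, 0.722% and 1.3% of all genes. In the comparisons of P2L with P2NL, P2L with G18.5 and P14NL with G0, 0 members passed edgeR's test, against 0.124%, 0.026% and 0.28% of all genes. Members with an unadjusted p under 0.05 numbered 2, 2 and 1 there, and DESeq2 and limma called 0 in each.

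The standing level of Cish before pregnancy differed far more between libraries than its level in mid-gestation. Over the 20 libraries of the 10 G0 groups in the 5 experiments with intact mice, Cish ran from 4.29 to 170.2 CPM with a median of 39.6, a span of 39.6-fold. The lowest was G0_Stat3KO replicate 2, and without it the lowest was 8.16 CPM and the span 20.9-fold. Over the 24 libraries of the 11 G14.5 groups it ran from 129.2 to 301.5 CPM, a span of 2.33-fold, and over 11 libraries of G18.5 from 140.96 to 268.4. Socs2 spanned 3.68-fold at G0, from 25.1 to 92.3 CPM, and 1.87-fold at G14.5, from 101.6 to 190.4. Prlr spanned 3.3-fold at G0, from 243 to 802 CPM. The span of Myc was wider than that of Cish, at 82-fold at G0, from 0.277 to 22.7 CPM, and 4.18-fold at G14.5. Tph1, by contrast, lay at 0 to 1.11 CPM in all 20 G0 libraries and at 86.2 to 281 in the 24 of G14.5. These levels come from tables normalized separately and from different genotypes and diets, so they are given as ranges with no test.

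**Figure D3:**
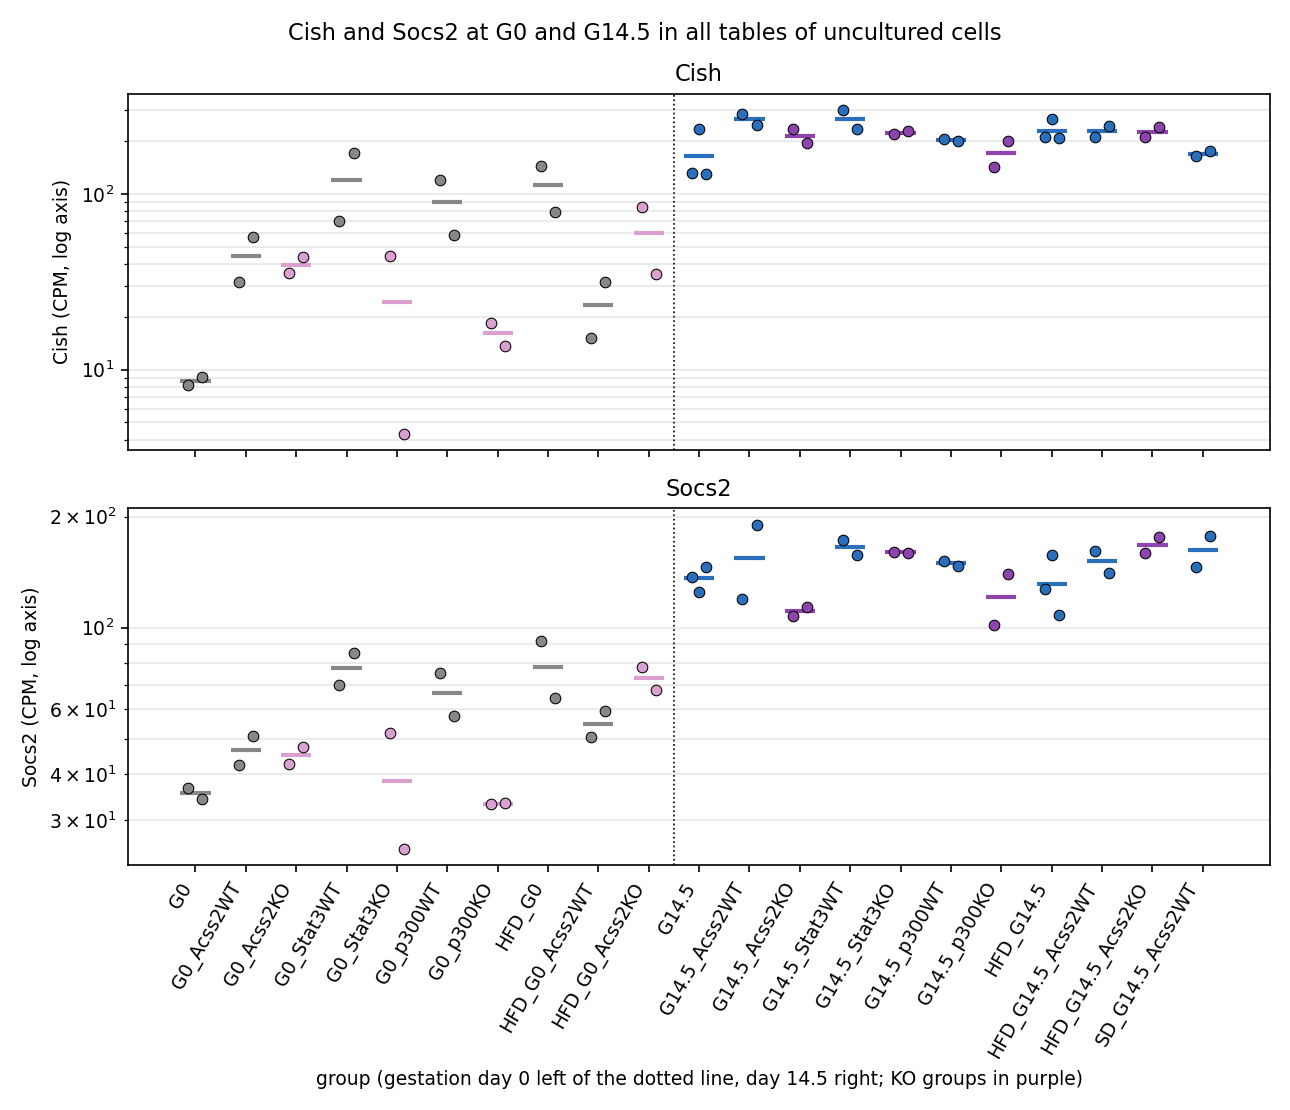
Cish (top) and Socs2 (bottom) in each G0 and G14.5 library of all experiments with intact mice, in CPM on log axes, by genotype and diet group; points are libraries and bars are group means. For Cish the G0 libraries spread from 4.29 to 170.2 CPM, and the G14.5 libraries lie between 129.2 and 301.5 CPM.

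Counted cell by cell, the change of Cish was a shift of nearly the whole population. Each cell was thinned to 200000 reads, which 7850 of 7897 cells reached. At G0, 51.4% and 65.7% of cells had a Cish read (77.8% and 82.9% without thinning), with a median of 1 read per cell in both libraries. At G3.5 the share was 53.1% and 87.9%, at G5.5 76.2% and 85.2%, and from G6.5 to G18.5 it was 98.1% to 100% in each library. The median cell then held 19 to 42 reads, and the 10% of cells with most Cish reads held 17.8% to 24.2% of all, against 61.5% and 40.9% at G0.

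The 3 P14L libraries showed the same contrast. In replicate 2 every cell had a Cish read, with a median of 34, whereas 64.9% and 74.5% of cells of replicates 1 and 3 had one, with a median of 2 in each. In P14NL the shares were 42.2% and 43.6% with a median of 0. P2NL was split between its libraries too, with 88.5% of cells and a median of 8.5 in replicate 1 against 57.3% and 1 in replicate 2. So were the libraries labelled Stat3 knockout at G0, with 88.5% and 33.3%, and those of the high-fat diet on day 7 after delivery, with 96.5% and 50%.

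Socs2 was found in 81.9% and 77.1% of cells at G0, with medians of 6 and 5 reads, and in 97.2% to 100% at G14.5, with medians of 21 to 23. At G0, 81.1% of the cells with a Cish read and 82.9% of the cells without one had a Socs2 read in replicate 1, and 82.6% and 66.7% in replicate 2, which had 35 cells. Socs1 was seen in 0.935% to 10.6% of thinned cells of the time course, Socs3 in 32.5% to 73.6% and Socs7 in 63.6% to 91.4%. Cells of a library are not replicates, and these shares carry no test.

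**Figure D4:**
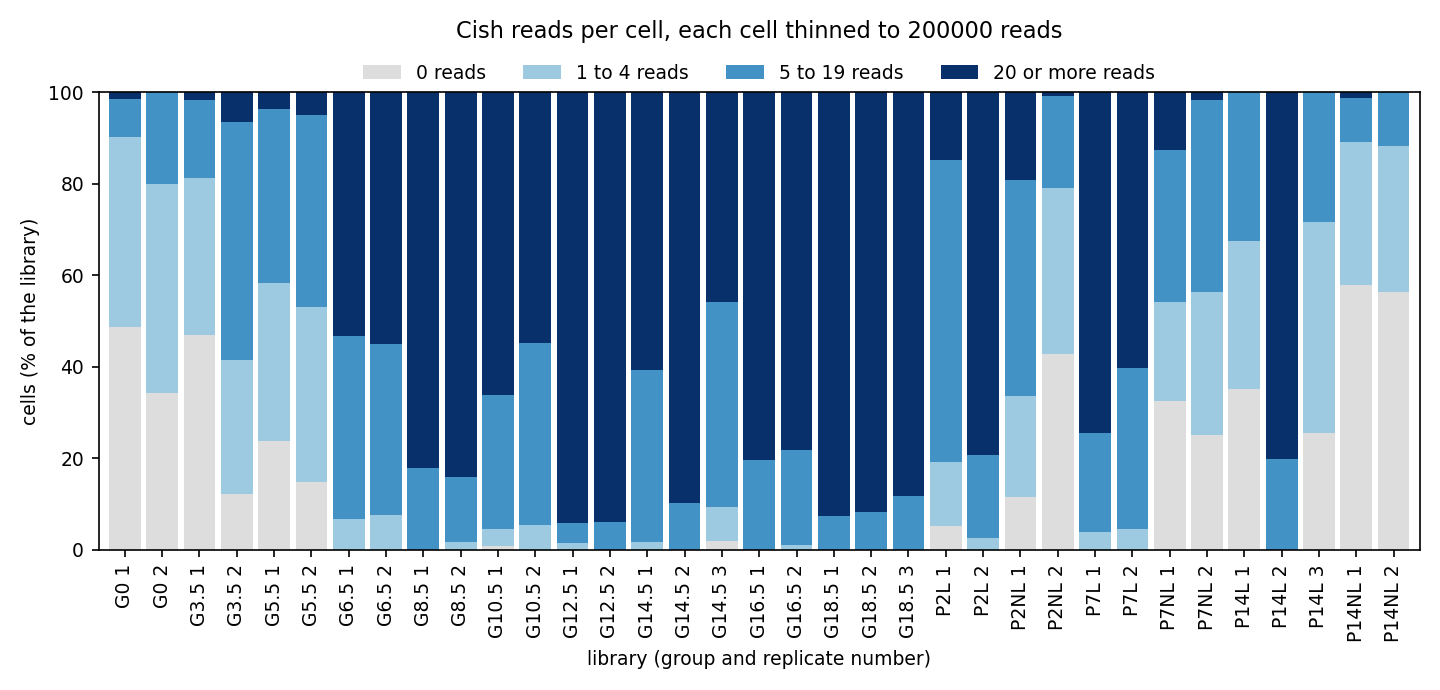
Cish reads per cell after thinning each cell to 200000 reads, shown as the shares of cells in 4 classes of read number for each library; 1 bar is 1 library. P14L replicate 2 has 0% of cells without a Cish read, and replicates 1 and 3 have 35.1% and 25.5%.

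Acss2 makes acetyl-CoA from acetate, and its knockout was compared with wild type at 3 stages. Acss2 itself lay at a mean of 10.53 CPM in knockout and 22 in wild type at G0 (log2 fold change -1.07), at 18.4 and 32 at G14.5 (-0.79) and at 18.7 and 29.8 at G18.5 (-0.67), and passed at none of the 3. Cish was at 31.7 and 57.2 CPM in wild type and 35.7 and 43.6 in knockout at G0, at 285.01 and 246.7 against 232.9 and 193.9 at G14.5, and at 183.9 and 140.96 against 157.8 and 241.9 at G18.5. Genotypes overlapped at G0 and G18.5, and at G14.5 the knockout libraries were the lower ones. The difference at G14.5 was -0.32 for Cish (SE 0.25, adjusted p 0.693) and -0.49 for Socs2 (SE 0.19, adjusted p 0.396), and neither passed at the other stages. In these 3 comparisons 0 members passed edgeR's test, against 0.00711%, 0.0213% and 0.149% of all genes at G0, G14.5 and G18.5. Members with an unadjusted p under 0.05 numbered 0, 3 and 1, and DESeq2 and limma called 0 in each.

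The rise from G0 to G14.5 was present in both genotypes. Cish rose by 2.58 on the log2 scale in wild type (SE 0.27, adjusted p 2.15e-05) and by 2.43 in knockout (SE 0.26, adjusted p 3.97e-05), and Socs2 by 1.73 (adjusted p 5.72e-05) and 1.29 (adjusted p 0.000907). The members called were 2 in wild type and 3 in knockout, against 2.92% and 4.35% of all genes. The member added in knockout was Socs3, its only call by edgeR in the study, with 13.9 and 8.76 CPM at G0 and 23.8 and 31.5 at G14.5 (log2 fold change 1.29, SE 0.32, adjusted p 0.0312). It was lost without G0_Acss2KO replicate 2 (0.99, adjusted p 0.286), G14.5_Acss2KO replicate 1 (1.47, adjusted p 0.0626) or replicate 2 (1.07, adjusted p 0.221), and limma on mean CPM did not make it (1.38, adjusted p 0.0601). Summed CPM of 15 immediate-early genes, which dissociation of tissue can raise, went from 1088 and 899 to 1299 and 1463 in the same libraries, and its part in the result was not tested. The interaction of genotype and stage was -0.15 for Cish (adjusted p 0.981), -0.44 for Socs2 (adjusted p 0.841) and 1.52 for Socs3 (SE 0.45, adjusted p 0.73). It was called for 0 members, against 0.0213% of all genes, with 1 member at an unadjusted p under 0.05 and 0 called by DESeq2 and limma.

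The libraries labelled Stat3 knockout held Stat3 reads at 57.7 CPM against 68.3 in wild type at G0, 70.5 against 85.3 at G14.5 and 64.1 against 82.4 at G18.5, and Stat3 passed the test at no stage. Cish lay at 69.7 and 170.2 CPM in wild type and at 44.4 and 4.29 in the libraries labelled knockout at G0. Socs2 followed at 69.7 and 85.3 against 51.8 and 25.1. Both were lower in the libraries labelled knockout, without overlap, and the 2 of these were far apart in Cish. The log2 difference was -2.29 for Cish (SE 0.63, adjusted p 0.273) and -1.01 for Socs2 (SE 0.26, adjusted p 0.233). Without G0_Stat3KO replicate 1 it was -4.80 (adjusted p 6.22e-05) and -1.63 (adjusted p 0.0117), so the call depends on that library.

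At G14.5 Cish lay at 301.5 and 233.9 CPM in wild type and at 218.7 and 228.2 in the libraries labelled Stat3 knockout (-0.26), and at G18.5 at 268.4 and 228.95 against 246.3 and 237.5 (-0.04). The rise from G0 to G14.5 was 1.16 in wild type (SE 0.61, adjusted p 0.401) and 3.19 in the libraries labelled knockout (SE 0.65, adjusted p 0.0168) for Cish. For Socs2 it was 1.09 (adjusted p 0.0422) and 2.05 (adjusted p 0.000289), and the first of these was lost without any 1 of its 4 libraries (0.95 to 1.24, adjusted p 0.103 to 0.178). The interaction was 2.03 for Cish (SE 0.86, adjusted p 0.599) and 4.54 without G0_Stat3KO replicate 1 (adjusted p 0.00066). The members called were 1 of 5 and 2 of 5 for the rise, against 1.74% and 1.7% of all genes in wild type and knockout.

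Of the 5 members in that table, edgeR's test called 0 between genotypes at G0, G14.5 and G18.5 and 0 for the interaction, against 0%, 0.0098%, 0.0196% and 0% of all genes. Members with an unadjusted p under 0.05 numbered 3, 0, 0 and 3, and DESeq2 called 1 at G0, Socs2, and 0 in the other 3, and limma 0 in all 4. Over all genes, 830 at G0 and 809 for the interaction had an unadjusted p under 0.05, while DESeq2 called 84 and 49 and limma 0.

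Cish and Socs2 were lower at G0 in mice labelled as knockouts of p300, a histone acetyltransferase encoded by Ep300, and their differences at G14.5 did not pass. Ep300 reads lay at 13.9 CPM in knockout and 30.5 in wild type at G0 (log2 fold change -1.13, adjusted p 0.0524) and at 20 and 32.4 at G14.5 (-0.69, adjusted p 0.369). Cish was at 120.8 and 58.4 CPM in wild type and 18.49 and 13.7 in knockout at G0, and at 206.4 and 200.7 against 141.4 and 199.8 at G14.5. Socs2 was at 75.4 and 57.5 against 33.3 and 33.3 at G0, and at 152.04 and 146.7 against 101.6 and 140.2 at G14.5. At G0 the genotypes were apart for both genes.

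The difference at G0 was -2.47 for Cish (SE 0.30, adjusted p 0.00193), called without any single library as well, and -1.0 for Socs2 (SE 0.20, adjusted p 0.0291). The Socs2 call was lost without G0_p300WT replicate 1 (-0.79, adjusted p 0.0741), G0_p300KO replicate 1 (-0.99, adjusted p 0.147) or G0_p300KO replicate 2 (-1.0, adjusted p 0.124). At G14.5 the differences were -0.25 (adjusted p 0.852) and -0.31 (adjusted p 0.646). The wild-type G0 libraries of this table were above the median of Cish at G0 over all tables, 39.6 CPM, and the knockout libraries were below it and above the G0 libraries of the time course. Myc and Tph1 were also lower in the knockout at G0, by 4.38 on the log2 scale for Myc (adjusted p 0.000362), and Tph1, at 0 in both knockout libraries and 0.559 and 0.705 CPM in wild type, was near the floor in both. The cell-cycle gene Ccnd1, of the same list of STAT5-responsive genes, was higher, at 21.9 ± 0.51 CPM in wild type and 50.5 ± 1.69 in knockout (SD, n = 2 each), a difference of 1.21 (adjusted p 0.00693).

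From G0 to G14.5 the difference of Cish was 1.19 in p300 wild type (SE 0.29, adjusted p 0.0538), short of the threshold, and Cish rose by 3.41 in knockout (SE 0.31, adjusted p 9.6e-05), and Socs2 rose by 1.17 (adjusted p 0.00942) and 1.86 (adjusted p 0.000271). The interaction was 2.22 for Cish (SE 0.41, adjusted p 0.0773) and 0.69 for Socs2 (adjusted p 0.418), and that of Cish passed without G0_p300WT replicate 1 (1.61, adjusted p 0.0254), G0_p300WT replicate 2 (2.65, adjusted p 0.00111) or G14.5_p300KO replicate 1 (2.44, adjusted p 0.0101). Members called were 2 at G0, both lower in the knockout, 1 for the wild-type rise and 2 for the knockout rise, against 1.54%, 2.15% and 3.27% of all genes. At G14.5 0 members were called between genotypes, against 0% of all genes, with 0 members and 1333 genes at an unadjusted p under 0.05 and 0 members and 294 genes called by DESeq2, and 0 genes called by limma. For the interaction edgeR's test called 0 members, against 0.0668% of all genes, 2 members had an unadjusted p under 0.05, DESeq2 called 1, Cish, and limma 0.

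On high-fat diet the rise of Cish to G14.5 passed in 1 of 3 sets of mice and that of Socs2 in 2 of 3. In the mice with no genotype label Cish lay at 144.8 and 79.04 CPM in HFD_G0 and at 211.8, 268.6 and 208.5 in HFD_G14.5, a difference of 1.04 (SE 0.49, adjusted p 0.322), and Socs2 at 92.3 and 64.3 against 127.2, 157.1 and 108.5 (0.74, SE 0.21, adjusted p 0.0732). In Acss2 wild-type mice on the same diet Cish lay at 15.1 and 31.5 CPM at G0 and 211.3 and 243.6 at G14.5, and in knockout mice at 84.5 and 35.1 and at 212.3 and 238.97. No G0 library reached the lowest G14.5 library in any of these 3 sets.

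Cish rose by 3.29 in Acss2 wild type on high-fat diet (SE 0.57, adjusted p 0.00437) and its difference in knockout was 1.91 (SE 0.54, adjusted p 0.0542), which became 2.68 without HFD_G0_Acss2KO replicate 1 (adjusted p 0.0282). Socs2 rose by 1.46 (adjusted p 0.0016) and 1.20 (adjusted p 0.00604). The genotype difference of Cish was 1.37 at G0 (SE 0.54, adjusted p 0.596) and -0.01 at G14.5, where Acss2 itself lay at 16.8 CPM in knockout and 45 in wild type (-1.42, adjusted p 0.012). The interaction was -1.39 for Cish (adjusted p 0.688). Between high-fat and standard diet in Acss2 wild type at G14.5, Cish stood at 211.3 and 243.6 against 163.5 and 174.8 CPM (0.43, adjusted p 0.792) and Socs2 at 161.5 and 140.9 against 146.3 and 177.6 (-0.10).

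On day 7 after delivery without lactation the mice on high-fat diet held Cish at 85.7 and 13.6 CPM, 2.21 lower on the log2 scale than at G14.5 (SE 0.52, adjusted p 0.0401), and Socs2 at 71.6 and 46.9 (-1.14, SE 0.21, adjusted p 0.00738). The Cish call was lost without any 1 HFD_G14.5 library (-2.27 to -2.07, adjusted p 0.074 to 0.0871), and both were lost without HFD_P7NL replicate 2 (-1.42 and -0.87, adjusted p 0.213 for each). Of the 8 members, 2 were called there, against 1.32% of all genes, 2 for the rise in Acss2 wild type (1.93%) and 1 in knockout (3.85%). In the other 5 comparisons on high-fat diet edgeR's test called 0 members. The share of all genes was 1.95% for HFD_G14.5 against HFD_G0, 0% and 0.0638% between genotypes at G0 and G14.5, 0.0142% for the interaction and 0.213% between diets. Members with an unadjusted p under 0.05 numbered 3, 2, 2, 0 and 2 there, and DESeq2 and limma each called 1 in the first, Socs2, and 0 in the rest. Between genotypes at G0, 1094 genes had an unadjusted p under 0.05, DESeq2 called 79 and limma 4.

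In cultured islets maternal serum went with high Cish and Socs2 under every condition tried. In the A485 set Cish lay at 13.1 and 6.5 CPM in NS with vehicle and at 152.9 and 132.6 in MS with vehicle, and at 7.29 and 8.09 in NS and 133.5 and 114.7 in MS under A485. In the nifuroxazide set it lay at 9.7 and 6.16 in NS and 165.7 and 143.4 in MS with vehicle, and at 3.31 and 2.15 in NS and 114.1 and 116.9 in MS under nifuroxazide. All 8 MS libraries were at or above 114.1 CPM and all 8 NS libraries at or below 13.1 CPM, so the groups were far apart with and without inhibitor. Socs2 lay between 17.7 and 35.4 CPM in the 8 NS libraries and between 85.9 and 131.2 in the 8 MS libraries.

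The serum effect on Cish was 3.92 with vehicle (SE 0.28, adjusted p 6.61e-05) and 4.01 under A485 (SE 0.27, adjusted p 8.92e-05). In the nifuroxazide set it was 4.28 with vehicle (SE 0.26, adjusted p 2.18e-06) and 5.41 under nifuroxazide (SE 0.29, adjusted p 5.43e-07). For Socs2 the effect was 2.57 (adjusted p 0.000156) and 2.34 (adjusted p 0.000415) in the first set and 1.99 (adjusted p 0.000642) and 1.59 (adjusted p 0.00641) in the second. These 2 were the members called in each of the 4 comparisons, against 0.657% and 0.288% of all genes in the A485 set and 1.02% and 0.49% in the nifuroxazide set. Prlr was also higher in MS with vehicle, by 1.01 (adjusted p 0.0139) and 1.961 (adjusted p 7.33e-06). Socs3 lay at 3.89 and 2.95 CPM in NS and 6.54 and 20.5 in MS in the A485 vehicle set (1.99, SE 0.56, adjusted p 0.184) and at 6.9 and 8.01 against 19.2 and 20.4 in the nifuroxazide vehicle set (1.41, adjusted p 0.253). Socs3 did not overlap between sera in either vehicle set and passed edgeR's test in neither. DESeq2 called it in the A485 vehicle set (1.98, adjusted p 0.0403), beside 354 of all 13554 genes.

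**Figure D5:**
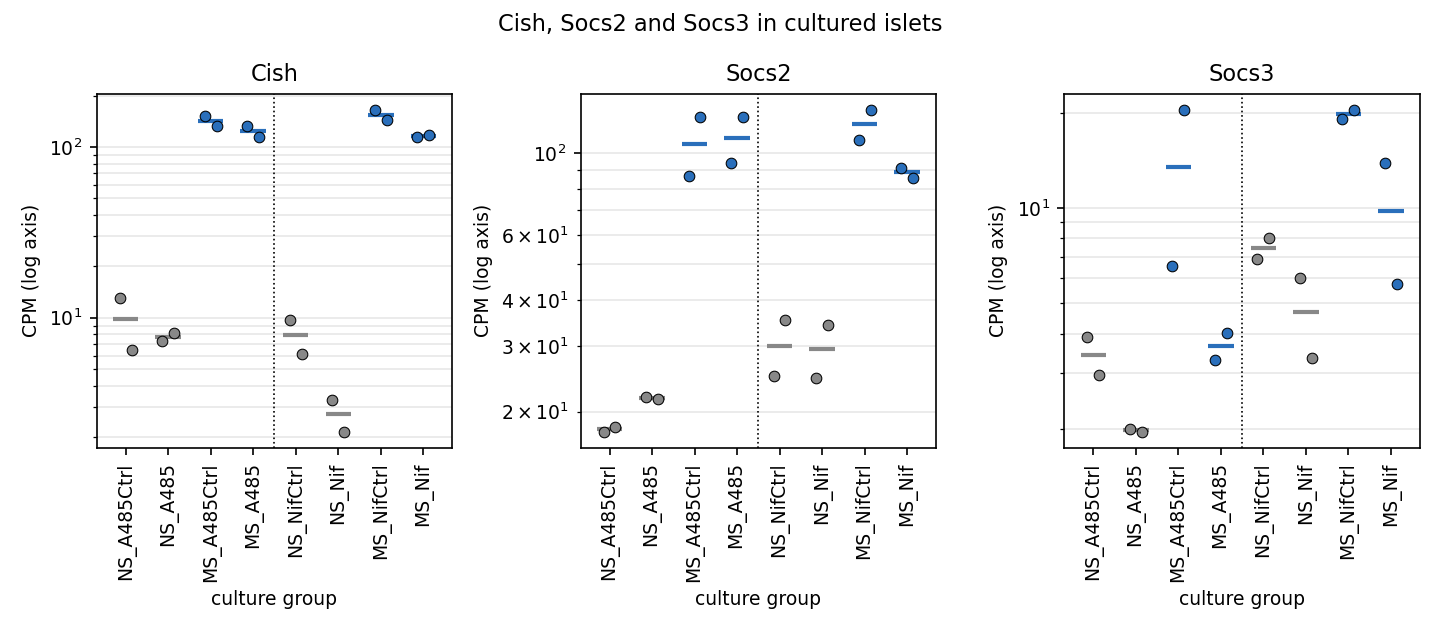
Cish, Socs2 and Socs3 in each library of the cultured islets, in CPM on log axes, by serum (NS grey, MS blue) and inhibitor; points are libraries and bars are group means. Cish lies between 114.1 and 165.7 CPM in all MS libraries and between 2.15 and 13.1 CPM in all NS libraries.

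A485 changed neither Cish nor Socs2 detectably, while Prlr was lower under it in both sera and passed in MS. The A485 effect on Cish was -0.29 in NS (95% interval -0.82 to 0.23, adjusted p 0.623) and -0.20 in MS (-0.66 to 0.26, adjusted p 0.718), and that on Socs2 was 0.28 (adjusted p 0.529) and 0.05. In MS, Prlr fell from 931 and 778 CPM with vehicle to 511 and 377 under A485 (log2 fold change -0.94, SE 0.15, adjusted p 0.00819). In NS it lay at 427 and 425 CPM with vehicle and 273 and 286 under A485 (-0.61, adjusted p 0.0598). The interaction of A485 and serum for Prlr was -0.34 (adjusted p 0.98). Socs3 lay at 6.54 and 20.5 CPM with vehicle and 3.31 and 4 under A485 in MS (-1.89, SE 0.55, adjusted p 0.0917), and without MS_A485Ctrl replicate 1 the value was -2.51 (adjusted p 0.02). The 15 immediate-early genes summed to 1926 and 1419 CPM with vehicle and 2290 and 2270 under A485 there, and their part in the result was not tested. The share of all genes called for A485 was 2.57% in NS and 3.3% in MS, and 0.00738% for the interaction with serum. Of the 8 members 0 were called in each, 0, 1 and 0 had an unadjusted p under 0.05, and DESeq2 called 0, 1 (Socs3) and 0. On mean CPM per cell, limma called 2 members in NS, Socs2 (0.77) and Socs7 (0.65), where it called 3154 of all 13554 genes. It called 0 members in MS, beside 2482 genes, and 0 for the interaction, beside 1 gene.

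Nifuroxazide went with lower Cish in normal serum. The effect in NS was -1.55 (SE 0.27, adjusted p 0.0097), from 9.7 and 6.16 to 3.31 and 2.15 CPM, and in MS -0.42 (SE 0.23, adjusted p 0.607), from 165.7 and 143.4 to 114.1 and 116.9. The NS call was lost without NS_NifCtrl replicate 1 (-1.18, adjusted p 0.0874) or NS_Nif replicate 2 (-1.27, adjusted p 0.0692), and limma on mean CPM did not make it (-0.84, adjusted p 0.107). The NS libraries of the set held 45 or more Cish reads each. The summed CPM of 5 hepatocyte markers, mostly Ttr, was 4125 and 1999 with vehicle and 809 and 1020 under nifuroxazide in NS, and its part in the result was not tested. The interaction with serum was 1.13 for Cish (SE 0.35, adjusted p 0.567), so a difference between the sera in the nifuroxazide effect was not shown. The effect on Socs2 was -0.03 in NS and -0.44 in MS (adjusted p 0.57). Prlr fell in both sera under nifuroxazide, by 0.73 in NS (adjusted p 0.0145) and by 0.82 in MS (adjusted p 0.0114). The members called were 1 in NS, against 1.99% of all genes, 0 in MS (0.697%) and 0 for the interaction (0%). Members with an unadjusted p under 0.05 numbered 1 in MS and 1 for the interaction, DESeq2 and limma called 0 in both, and over all genes the interaction had 886 at an unadjusted p under 0.05, 65 called by DESeq2 and 0 by limma.

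Over all 51 comparisons edgeR called Cish in 21, 17 higher and 4 lower, and Socs2 in 23, 20 higher and 3 lower. Socs3 was called in 1 of 45, Socs1, Socs5 and Socs7 in 0 of 51 and Socs4 and Socs6 in 0 of 45. DESeq2 called Socs7 in 3, at G8.5 and G14.5 against G0 and for the rise in Stat3 knockout (-0.75, adjusted p 0.0139), and Socs3 for serum and for A485 in MS (-1.90, adjusted p 0.0219) in the A485 set. Among all genes it called 1371 and 2037 of 15373 at G8.5 and G14.5, and 412 of 10207 for the Stat3 knockout rise. For serum with vehicle and for A485 in MS it called 354 and 1068 of 13554. Limma called Socs7 for A485 in NS (0.65, adjusted p 0.0381), where it called 3154 of 13554 genes. Many of these comparisons share libraries, so the counts are not independent.

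The genes whose group means were most like those of Cish over the 16 groups of the time course were Gcsh, of the glycine cleavage system, with a Pearson correlation of log2 levels of 0.97, Tph2, a serotonin synthesis enzyme, with 0.95, and Myc, the factor Grhl1 and the sugar transporter Slc50a1 with 0.95 each, out of 8136 genes ranked. Over the 8 groups of the high-fat diet table their correlations were 0.83, 0.93, 0.91, 0.96 and 0.89. Socs2 ranked 45 for likeness to Cish (0.89), Prlr 48 (0.88) and Tph1 71 (0.87). The 5 genes most like Socs2 were Chgb, a secretory granule protein, the reductase Txnrd2, Fam69a, Tph2 and the microtubule protein Map6, all at 0.95, and on high-fat diet they had 0.96, 0.86, 0.95, 0.96 and 0.71. Myc went from 1.79 CPM at G0 to 12 at G14.5 and Chgb from 732 to 3938. Socs3 had a correlation of 0.09 with Cish and Socs7 one of -0.70. These values describe group means that share libraries, and carry no test. The promoter windows of Gcsh, Tph2, Grhl1, Slc50a1, Chgb and Txnrd2 held 0 matches to TTCNNNGAA, and Myc, Fam69a and Map6 had no window.

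The rest of the pathway was read from lists of its other genes at G14.5 against G0, where 10.1% of all genes were called. Of 17 tested cytokine receptor genes 2 were higher, Prlr (1.97, SE 0.18, adjusted p 1.2e-08) and Il13ra1 (0.65, adjusted p 0.0343). Of 7 kinase genes 0 passed, Jak2 at 0.57 (adjusted p 0.176), and of 7 STAT genes Stat5a was lower, from 11.2 ± 1.6 CPM (n = 2) to 5.75 ± 0.537 (n = 3), a change of -0.96 (SE 0.24, adjusted p 0.00941). Stat5b stood at -0.11 and Ghr, the growth hormone receptor gene, at 0.00. Of 13 other inhibitors of the pathway, phosphatases and PIAS proteins among them, 0 passed. Stat5a passed at no other stage of the time course against G0, with -0.42 at G18.5 (adjusted p 0.394). From G0 to G14.5 it was -0.78 in Acss2 wild type (adjusted p 0.162) and -0.54 in Stat3 wild type (adjusted p 0.43). In p300 wild type it was -1.09 (adjusted p 0.0878). Stat5b changed by -0.37 in Acss2 wild type (adjusted p 0.355) and by -0.68 in Stat3 wild type (adjusted p 0.145). It was called lower in p300 wild type (-0.89, adjusted p 0.0429).

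Among 9 tested partners of the SOCS box in the ubiquitin ligase, 4 were higher and 1 lower at G14.5, beside the 10.1% of all genes. At G6.5 1 of 9 was higher, Nedd8, and at G18.5 0 of 9 passed. Against G0 in the wild-type controls of each knockout, none passed at G14.5, of 9 for Acss2, 9 for p300 and 5 for Stat3. At G14.5 in the time course the elongin genes Tceb1 (0.50, adjusted p 0.0169) and Tceb2 (0.47, adjusted p 0.0209), Nedd8 (0.55, adjusted p 0.00475) and the RING protein gene Rbx1 (0.40, adjusted p 0.0231) were higher, and the ligase gene Arih2 was lower (-0.48, adjusted p 0.0345). Of 18 other SOCS-box proteins 1 was lower, Spsb2 (-0.82, adjusted p 0.0336). Of 14 genes known to respond to STAT5 elsewhere, Tph1 (7.11, adjusted p 4.39e-07), Tph2 (4.89, adjusted p 3.48e-06) and Myc (2.75, adjusted p 0.00338) were higher and the kinases Pim2 (-0.94, adjusted p 0.00085) and Pim3 (-0.81, adjusted p 0.0139) lower. Of 10 tested genes of the STAT3 list 0 passed, and Igfals, a growth hormone linked gene, was higher (1.15, adjusted p 6.98e-05). Of 15 immediate-early genes 0 passed. The median log2 fold change was 0.23 for the receptors, -0.33 for the kinases, -0.11 for the STATs, -0.22 for the other inhibitors, 0.13 for the ligase partners and -0.27 for the other SOCS-box proteins, beside 0.01 for all genes. It was 0.21 for the STAT5 list, 0.28 for the STAT3 list and -0.11 for the immediate-early genes. Pim2 and Pim3 were not among the genes called at G6.5 or G18.5, or at G14.5 in the wild-type controls of each knockout. Tph1 and Tph2 were called in each of these comparisons with G0, and Myc in all but those of Stat3 and p300 wild type.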

How the data were processed

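Smart-seq3xpress libraries of single cells labelled as β cells were deposited by the authors as 7 tables of raw read counts per gene and cell, in which 7897 cells were used. The mouse build GRCm38 (mm10) and the tools featureCounts 2.0.1, Trimmomatic 0.39 and Cell Ranger 3.1.0 are named in the submitters' processing notes, and the sources used here name neither the aligner nor the annotation. The 2 islet samples from 10x droplets were not analysed here.

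Counts were summed per group and replicate number into 100 libraries of 13273435 to 181405413 reads. Each table was normalized separately by TMM, and CPM are on the resulting library sizes. Genes passed edgeR's filterByExpr by group, as all members did in each table that held them. The groups of a table were fitted together with edgeR 4.0.16 in R 4.3.3 by the quasi-likelihood test, and 51 comparisons were made. Calls were taken at a Benjamini-Hochberg adjusted p of 0.05 over all genes of a comparison. The p-values measure the spread between replicate libraries, and the labels do not state that the third libraries of 4 groups are biological replicates.

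For counts per cell, each cell was thinned at random to 200000 reads, and shares cover counting error only. Alternatives were no filter, Ins1 and Ins2 left out, cells over 5% of reads from other hormone genes or under 200000 reads left out, a replicate block, DESeq2 1.42.0, limma 3.58.1 on log2 (mean CPM over cells + 1), and each library left out in turn. The procedure was tested on simulated data.

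The genes named are the 8 members, the targeted genes, 6 upstream genes, the 5 genes most like Cish and Socs2 over group means among genes of at least 10 CPM in 1 group, and at most 4 called genes of each of the 11 pathway lists at G14.5; 1 of these lists is not reported here. Rbx1, Pim3, Alb, Ccnd1 and Ikzf4, and the marker genes Mafa, Ptprc, Col3a1, Gcg and Ttr, fall outside that rule and were named after their values were seen. The members and lists were chosen with earlier results of these data known.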

Additional observations from a re-analysis of the deposited data

How the results depend on the processing

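Of 714 recomputed values of Cish and Socs2, 674 kept their direction and their side of the threshold, 4 moved in value, 5 lost and 31 gained a call, and 0 reversed. Of 2009 such values of the other 6 members, 1918 kept both, 71 moved, 1 lost and 19 gained a call, and 0 reversed. Without the low-count filter, log2 values gained a call for Cish at G3.5 (1.62), G5.5 (1.77), G6.5 against G5.5 (1.94), P2L against P2NL (1.85), P7L against P7NL (2.15), P2L against G18.5 (-0.89), between Stat3 genotypes at G0 (-2.29), in Stat3 wild type (1.16) and its interaction (2.03), in p300 wild type (1.19) and its interaction (2.21), on high-fat diet at G14.5 (1.04) and in Acss2 knockout (1.90), between Acss2 genotypes at G0 on that diet (1.38) and in their interaction (-1.40). Those of Socs2 were at G3.5 (0.61), G5.5 (0.71), P2L against P2NL (0.57), P14L against P14NL (0.63), between Stat3 genotypes at G0 (-1.01) and on high-fat diet at G14.5 (0.75). The cause was not tested.

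DESeq2 added Socs2 at G5.5 (0.70), between Stat3 genotypes at G0 (-1.02) and on high-fat diet at G14.5 (0.75), and Cish in p300 wild type (1.18), the p300 interaction (2.23) and Acss2 knockout on high-fat diet (1.92). Limma on mean CPM per cell lost Cish at P14L against P14NL (2.10) and for nifuroxazide in NS (-0.84), and Socs2 in Stat3 wild type (1.07) and between p300 genotypes at G0 (-0.67). It added Socs2 on high-fat diet at G14.5 (0.96) and for A485 in NS (0.77). Uncalled values moved for Socs2 between diets (0.24) and for nifuroxazide in NS (0.38), and for Cish for A485 in NS (0.28) and MS (0.29). DESeq2 gave 7 adjusted p-values of the members as NA.

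With the replicate block Cish gained a call in p300 wild type (1.23) and in Acss2 knockout on high-fat diet (1.99) and lost one for HFD_P7NL against HFD_G14.5 (-2.41). Same-numbered libraries correlated at -0.12 to 0.143 in their deviations, highest between the sera of the A485 vehicle set. Whether they share more than a number was not tested. The block changed no other call of Cish or Socs2.

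With 1 library left out, 412 of 470 values of Cish and Socs2 kept their direction and call, 21 moved, 28 lost and 9 gained a call, and for the other 6 members 1117 of 1326 did, 198 moved, 3 lost and 8 gained one. Socs2 ranged from 0.87 to 0.97 at G6.5, 0.96 to 1.21 at G10.5, 0.16 to 1.15 for P2L against P2NL, 1.00 to 1.36 for P7L against P7NL and -1.64 to -0.65 for P2NL against G18.5. Cish ranged from 3.64 to 3.80 at G6.5, 1.19 to 3.51 for P14L against P14NL and -3.98 to -2.07 for P2NL against G18.5. In the Acss2 table Cish ranged from -0.53 to 0.32 between genotypes at G0, -0.041 to 0.57 at G18.5 and -0.64 to 0.21 in the interaction, and Socs2 from -0.17 to 0.091 at G0 and -0.054 to 0.16 at G18.5. In the Stat3 table Cish ranged from -4.80 to -1.43 at G0, -0.15 to 0.070 at G18.5 and 1.17 to 4.54 in the interaction, and Socs2 from -1.63 to -0.58 at G0, -0.11 to 0.021 at G14.5 and 0.95 to 1.24 in wild type. In the p300 table Cish ranged from 0.75 to 1.80 in wild type and 1.61 to 2.65 in the interaction, and Socs2 from -1.18 to -0.79 at G0. On high-fat diet Cish ranged from 1.41 to 2.68 in Acss2 knockout, -0.12 to 0.094 between genotypes at G14.5 and -4.07 to -1.42 for HFD_P7NL against HFD_G14.5, and Socs2 from -1.48 to -0.87 there and -0.23 to 0.048 between diets. In the cultures Cish ranged from -0.75 to 0.26 for A485 in NS, -0.47 to 0.55 in the A485 interaction and -1.89 to -1.18 for nifuroxazide in NS, and Socs2 from -0.22 to 0.35 for A485 in MS, -0.51 to 0.051 in the A485 interaction and -0.29 to 0.24 for nifuroxazide in NS.

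Over all genes, the number called at G14.5 against G0 was 1554, and 873 with limma. Between p300 genotypes at G0 it was 207, and 868, 844 and 331 without the filter, with DESeq2 and with limma. For maternal against normal serum in the A485 vehicle set it was 89, and 492, 354 and 531 without the filter, with DESeq2 and with limma. Of the 51 comparisons, the count was over 1.5 times higher in 48 with DESeq2 and in 46 without the filter, and with limma higher in 10 and lower in 19. With the replicate block it was higher in 4 and lower in 4, among them HFD_G14.5 against HFD_G0 (275, and 95 with the block). Counts were lowest for Socs1, which had at most 3 reads in 7 of 100 libraries.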

Other observations

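Where replicate libraries of a group differed in Cish, Socs2 tended to differ with it. This comparison was chosen after seeing the data and carries no test. Over 88 libraries of the 6 tables that held all members, the deviation of Cish from its group mean on the log2 scale had a Pearson correlation of 0.56 with that of Socs2, rank 3 of 7361 genes. The 2 genes above it were Myc, at 0.63, and Ikzf4, at 0.57, and Grhl1 followed at 0.55. The median over all genes was 0.0056 and the 99th percentile 0.34. Tph1 stood at 0.48, Socs3 at 0.21, Prlr at 0.18 and Socs7 at 0.17. In the 12 libraries of the Stat3 table the value was 0.93 for Socs2 and -0.61 for Myc. In a group of 2 libraries the deviations mirror each other, so neither the 88 nor the 12 libraries are independent points. Every group of the Stat3 table had 2 libraries. Those of G0_Stat3KO were the furthest apart there in both Cish and Socs2, so the Socs2 value rests largely on that group.

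In 9 of the 44 groups with 2 libraries Cish differed by at least 1 on the log2 scale between them, and Socs2 differed in the same direction in 9 of 9. Over all 44 groups it did so in 28. Of the other members, Socs1 and Socs7 shared the direction in 6 of the 9 groups and Socs5 in 5 of 9. Socs3 and Socs4 did so in 4 of 7 and Socs6 in 3 of 7. Over all groups of 2 libraries the direction was shared by Socs7 in 25 of 44, Socs1 in 23 and Socs5 in 12. It was shared by Socs3 and Socs4 in 18 of 38 and by Socs6 in 17. The same count was not made over all genes.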
